A study of Rattus norvegicus with 8 samples.

Results

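The miRNAs described here are those of the blood vessel wall on a rat miRNA array: miR-126a, a miRNA of the endothelium, and miR-143 and miR-145, miRNAs of smooth muscle and pericytes. Every mature miRNA named rno-miR-126a, rno-miR-143 or rno-miR-145, with either arm of its precursor, was taken, which gave 6 of the 758 miRNAs on the array. These were rno-miR-126a-3p, rno-miR-126a-5p, rno-miR-143-3p, rno-miR-143-5p, rno-miR-145-5p and rno-miR-145-3p, called below without the prefix for rat. Their signals were compared in the left medial vestibular nucleus (MVN), the brainstem nucleus that receives input from the vestibular nerve, after unilateral vestibular deafferentation (UVD) and after a sham operation (SO). The first 5 of these miRNAs were detected on all 8 arrays, and miR-145-3p was detected on none. For none of the 5 did a difference between UVD and SO rats or between the timepoints pass the test, and the 95% confidence intervals of the differences lay between a fold change of 0.673 and one of 1.40 with quantile normalization and between 0.655 and 1.57 over the scalings tried.

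Male Sprague–Dawley rats, 7 weeks old, were operated on the left side. For UVD, the bony canals of the labyrinth were entered and ethanol was used to destroy it. For SO, the approach was the same but the canal was left closed and no ethanol was given. The 4 groups were UVD at 4 d, UVD at 4 h, SO at 4 d and SO at 4 h after surgery, with 2 arrays each. Each array was hybridized with the pooled RNA of 3 rats, so the p-values below measure the spread between pools of animals. None of the arrays analysed here was from unoperated rats or from the right MVN, and SO rats had undergone anesthesia and surgery as well.

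Small RNA of vessels reaches a tissue extract with the capillaries, arterioles and venules that the dissected block contains. miR-126a is made from an intron of Egfl7, a gene for a protein that endothelial cells secrete, and in mice and zebrafish it limits Spred1 and Pik3r2, which are inhibitors of signaling by vascular endothelial growth factor. miR-143 and miR-145 are made from a shared primary transcript in smooth muscle cells, and in mice they favor the contractile state, miR-145 through Klf4 and miR-143 through Elk1. In extracts of whole tissue, fewer cells of a type and less RNA per cell cannot be told apart.

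The mature sequences of all 6 miRNAs are shown because the array tells them apart by sequence alone, and because the arms of a precursor have different seeds. They were taken from RefSeq (build GRCr8) and run 5′ to 3′, with the seed (bases 2 to 8), which pairs with target mRNAs, in capitals.
miR-126a-3p: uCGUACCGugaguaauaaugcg
miR-126a-5p: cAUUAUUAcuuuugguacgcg
miR-143-3p: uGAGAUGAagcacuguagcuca
miR-143-5p: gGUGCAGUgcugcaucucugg
miR-145-5p: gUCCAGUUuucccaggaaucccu
miR-145-3p: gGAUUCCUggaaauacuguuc
The 6 seeds were all different, and none of them occurred in another of the 693 rat mature miRNAs of the RefSeq table. The table held 685 of the 758 miRNAs of the array, so a relative with the same seed outside the table was not looked for.

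The miR-126a arms lie on the plus strand of chromosome 3 inside Egfl7 (chr3:29802481-29814966, GRCr8), miR-126a-5p at chr3:29813182-29813202 and miR-126a-3p at chr3:29813219-29813240. The minus strand of the same place encodes miR-126b, a separate miRNA that shares 17 bases of the genome with miR-126a-5p and is complementary to it over all 17 of them. In RefSeq the gene symbols are crossed, so that the gene called Mir126b holds miR-126a. The sequence of miR-126b is shown for comparison with miR-126a-5p, of which it is the reverse complement over the shared bases.
miR-126b: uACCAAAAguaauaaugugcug
miR-126b was detected on 0 of 8 arrays, with 1 of its 128 spots well above background.

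miR-143 and miR-145 lie on the minus strand of chromosome 18 inside Carmn (chr18:57368191-57389112), a long non-coding RNA gene that is also called Mir143hg. Their hairpin precursors are 1278 bases apart. They are shown here with the mature arms in capitals because miR-143 was detected from both of its arms and miR-145 from only the first of its arms.
Mir143: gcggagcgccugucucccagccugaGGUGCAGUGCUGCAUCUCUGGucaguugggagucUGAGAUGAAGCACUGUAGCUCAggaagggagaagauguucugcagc
Mir145: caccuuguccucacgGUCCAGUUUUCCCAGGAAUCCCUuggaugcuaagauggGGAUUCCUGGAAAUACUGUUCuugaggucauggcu
The hairpin of Mir143 spans chr18:57371349-57371453 and that of Mir145 spans chr18:57369983-57370070.

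Each miRNA was read by 16 spots, which the scanner software summed into a total gene signal after subtracting background. Between 378 and 430 miRNAs were detected per array and no spot was saturated. All 8 arrays were on 1 slide and in 1 scan, with the UVD arrays in one row of the slide and the SO arrays in the other, so position on the slide and operation cannot be told apart. The 4 d arrays were in columns 1 and 2 and the 4 h arrays in columns 3 and 4, so the same holds for timepoint. Markers of neurons (5 of 5) and oligodendrocytes (3 of 3) were detected on every array, as was a set of miRNAs of white blood cells and microglia (6 of 6).

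miR-126a-3p, miR-126a-5p, miR-143-3p and miR-145-5p were above background on 128 of 128 spots each. The scanner software gave an error of 7.76% to 7.83% of the total gene signal for miR-126a-3p, of 8.09% to 8.15% for miR-143-3p, of 7.33% to 7.44% for miR-145-5p and of 10.0% to 10.1% for miR-126a-5p. The 5′ arm of the miR-143 precursor, miR-143-5p, was nearer to background, with 61 of 128 spots above it and an error of 14.5% to 21.3%. All 61 belonged to 1 of its 2 probes, which had 5 to 8 of 8 spots above background per array, whereas the other probe had 0 of 64. miR-145-3p had 1 of 128 spots above background and its total gene signal was listed at 0.1 on each array. It was therefore not tested, and its level in the MVN was not measurable here.

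Where a miRNA had 2 probes in use, the difference between them was followed from array to array. The log2 difference between the probes had an SD over the 8 arrays of 0.04 for miR-126a-3p, 0.03 for miR-143-3p and 0.04 for miR-145-5p. For miR-145-5p the difference ran from 0.68 to 0.82, while the mean signal of its dimmer probe ran only from 108 to 121.

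Values below are quantile normalized intensities, in which each array is given the same set of values and a miRNA receives the value that belongs to its rank. rno-miR-126a-3p had 4180 and 4180 at 4 d after UVD, 4180 and 4505 at 4 h after UVD, 4505 and 4773 at 4 d after SO, and 4505 and 4505 at 4 h after SO. Since it moved by only a few ranks, it took 3 different values on the 8 arrays. At 4 d the UVD arrays were both below the SO arrays, and at 4 h 1 UVD array equaled the SO arrays. The means were 4180 ± 0 for UVD at 4 d, 4342 ± 230 for UVD at 4 h, 4639 ± 189 for SO at 4 d and 4505 ± 0 for SO at 4 h (SD, n = 2 each), an SD of 0 being the result of tied ranks and not a measure of error.

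rno-miR-126a-5p, the other arm of that precursor, had 267 and 219 at 4 d after UVD, 275 and 271 at 4 h after UVD, 267 and 256 at 4 d after SO, and 226 and 243 at 4 h after SO. The UVD arrays at 4 h were the highest 2 of the 8, and replicate 2 of the UVD group at 4 d was the lowest. The means were 243 ± 33.7 for UVD at 4 d, 273 ± 3.03 for UVD at 4 h, 262 ± 7.19 for SO at 4 d and 235 ± 12.0 for SO at 4 h (SD, n = 2 each). From high to low, the order of the groups was UVD at 4 h, SO at 4 d, UVD at 4 d and SO at 4 h.

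rno-miR-143-3p, of the smooth muscle cluster, had 3011 and 3011 at 4 d after UVD, 2949 and 2949 at 4 h after UVD, 3484 and 3011 at 4 d after SO, and 3156 and 3011 at 4 h after SO. Of the 8 values, 4 were tied at 3011, and the only one that stood off was replicate 1 of the SO group at 4 d. The means were 3011 ± 0 for UVD at 4 d, 2949 ± 0 for UVD at 4 h, 3247 ± 334 for SO at 4 d and 3083 ± 103 for SO at 4 h (SD, n = 2 each).

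rno-miR-145-5p, its partner in the cluster, had 157 and 157 at 4 d after UVD, 182 and 164 at 4 h after UVD, 164 and 168 at 4 d after SO, and 177 and 159 at 4 h after SO. The UVD arrays at 4 d were the lowest of the 8, by a margin smaller than the gap between the replicates of either 4 h group. The means were 157 ± 0 for UVD at 4 d, 173 ± 12.7 for UVD at 4 h, 166 ± 3.05 for SO at 4 d and 168 ± 12.4 for SO at 4 h (SD, n = 2 each).

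miR-143-5p had 8.66 and 9.97 at 4 d after UVD, 8.39 and 11.0 at 4 h after UVD, 10.6 and 10.2 at 4 d after SO, and 11.6 and 10.2 at 4 h after SO. The replicates of the UVD group at 4 h were nearly as far apart as the whole range. The means were 9.32 ± 0.92 for UVD at 4 d, 9.69 ± 1.83 for UVD at 4 h, 10.4 ± 0.28 for SO at 4 d and 10.9 ± 0.93 for SO at 4 h (SD, n = 2 each). From high to low, the order of the groups was SO at 4 d, SO at 4 h, UVD at 4 h and UVD at 4 d for miR-126a-3p, and SO at 4 h, SO at 4 d, UVD at 4 h and UVD at 4 d for miR-143-5p. For miR-143-3p it was SO at 4 d, SO at 4 h, UVD at 4 d and UVD at 4 h, and for miR-145-5p it was UVD at 4 h, SO at 4 h, SO at 4 d and UVD at 4 d. No groups that were compared below differed by the test, so none of these orders is settled.

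**Figure D1:**
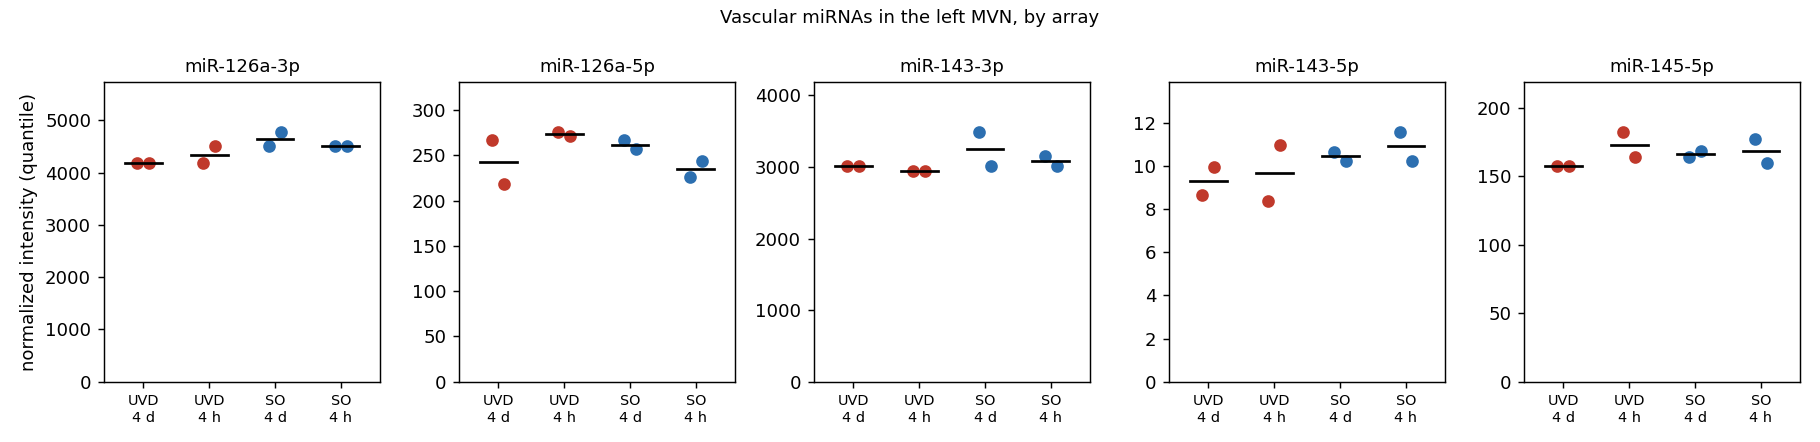
Normalized intensity (quantile, vertical axis from 0) of the 5 detected miRNAs in the UVD (red) and SO (blue) groups, each at 4 d and at 4 h, with 1 point per array and a line at the mean of the 2 arrays. Within each miRNA the highest array was between 1.14 and 1.38 times the lowest, and the groups lie close to each other.

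The first question was whether the deafferented MVN differed from the sham-operated one in its vascular miRNAs at the later timepoint. At 4 d the means of all 5 miRNAs were lower after UVD than after SO (with no scaling between arrays all 5 were higher), and none of the differences passed the test (limma, Benjamini-Hochberg adjustment over all 422 miRNAs tested). The log2 fold change was −0.15 for miR-126a-3p (95% confidence interval −0.31 to 0.01, adjusted p = 0.745). It was −0.11 for miR-126a-5p (−0.38 to 0.16, adjusted p = 0.802), but −0.26 without replicate 1 and 0.03 without replicate 2 of the UVD group. It was −0.10 for miR-143-3p (−0.31 to 0.10, adjusted p = 0.797), but 0.00 without replicate 1 and −0.20 without replicate 2 of the SO group, so that its lower mean came from 1 SO array. It was −0.08 for miR-145-5p (−0.29 to 0.12, adjusted p = 0.815) and −0.17 for miR-143-5p (−0.56 to 0.22, adjusted p = 0.802), the last being −0.06 without replicate 1 and −0.27 without replicate 2 of the UVD group. Of all 422 miRNAs tested, 56.4% had a lower mean after UVD at this timepoint, and 0.0% were called at an adjusted p under 0.05 (16 had an unadjusted p under 0.05). The arrays of the UVD and SO groups did not overlap for 3 of the 5, miR-126a-3p, miR-143-5p and miR-145-5p, against 29.4% of all miRNAs tested. The median log2 fold change of the 5 was −0.11, against −0.02 over all miRNAs tested. These 5 miRNAs come from 3 precursors, so they are not 5 independent measurements.

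At 4 h the 5 miRNAs were divided. After UVD the means of miR-126a-3p, miR-143-3p and miR-143-5p were lower and those of miR-126a-5p and miR-145-5p were higher than after SO, and none of these differences passed the test. With 75th percentile scaling, in which each array is divided by its own 75th percentile, miR-126a-3p and miR-143-3p turned to 0.24 and 0.07. A lower mean was seen with quantile normalization for 3 of 5, against 50.9% of all miRNAs tested. The log2 fold change furthest from 0 was that of miR-126a-5p, at 0.22 (−0.05 to 0.49, adjusted p = 0.370). Its other arm, miR-126a-3p, had −0.05 (−0.21 to 0.10, adjusted p = 0.684). miR-143-3p had −0.06 (adjusted p = 0.707), miR-145-5p had 0.04 (adjusted p = 0.824) and miR-143-5p had −0.18 (adjusted p = 0.599). Without replicate 1 of the UVD group miR-126a-3p had 0.00, miR-145-5p −0.04 and miR-143-5p 0.02. Of all miRNAs tested, 0.474% were called (2 miRNAs, and 72 at an unadjusted p under 0.05). The arrays did not overlap for 2 of the 5, miR-126a-5p and miR-143-3p, also against 50.9% of all.

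The change with time was taken within each group. In the UVD group, miR-126a-5p had a log2 fold change of −0.18 at 4 d against 4 h (−0.45 to 0.09, adjusted p = 0.428) and miR-145-5p of −0.14 (−0.34 to 0.07, adjusted p = 0.428). Single arrays moved both: miR-126a-5p had −0.33 without replicate 1 (adjusted p = 0.152) and −0.03 without replicate 2 of the UVD group at 4 d, and miR-145-5p had −0.07 without replicate 1 and −0.21 without replicate 2 of the 4 h arrays after UVD. The other 3 lay between −0.05 and 0.03, so that 4 of 5 had a lower mean at 4 d, against 51.2% of all miRNAs tested. It was 5 of 5 with 75th percentile scaling, against 63.7% of all. In the SO group miR-126a-5p had 0.16 at 4 d against 4 h (−0.11 to 0.43, adjusted p = 0.455), and the other 4 lay between −0.06 and 0.07, so that 2 of 5 had a lower mean at 4 d, against 47.6% of all. It was 1 of 5 with 75th percentile scaling, against 35.8% of all. None of these passed, where 0.0% of all miRNAs tested were called after UVD (65 at an unadjusted p under 0.05) and 1.66% after SO (7 called, 100 at an unadjusted p under 0.05). The arrays of the timepoints did not overlap for 3 of 5 miRNAs after UVD, against 44.3% of all, and for 1 of 5 after SO, against 54.3% of all.

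The timepoints were then combined. Averaged over both timepoints, UVD against SO gave −0.10 for miR-126a-3p (−0.21 to 0.01, adjusted p = 0.351), the lowest adjusted p among the 30 tests of 5 miRNAs and 6 contrasts. The means of 4 of 5 were lower after UVD in this contrast, against 54.3% of all miRNAs tested. The difference between the time changes of the UVD and SO groups was −0.33 for miR-126a-5p (−0.72 to 0.05, adjusted p = 0.492) and −0.10 for miR-126a-3p (adjusted p = 0.708). It was below 0 for 4 of 5, against 47.9% of all. Over all miRNAs tested, 0.0% were called for the averaged contrast (55 at an unadjusted p under 0.05) and 0.237% for the difference between time changes (1 called, 37 at an unadjusted p under 0.05). Of the 30 tests with quantile normalization, 0 passed and 0 had an unadjusted p under 0.05. With 75th percentile scaling, the unadjusted limma p for UVD against SO at 4 h was 0.024 for miR-126a-3p and 0.042 for miR-126a-5p. Of all 422 miRNAs, 106 were under 0.05 there. For the difference between time changes it was 0.018 and 0.032 (72 of 422). At 4 d against 4 h it was 0.038 for miR-145-5p after UVD (80 of 422) and 0.044 for miR-126a-3p after SO (110 of 422). None of these passed after adjustment. The test named in the study's methods, run on the same values, called 0 miRNAs of any kind in each comparison of a pair of groups after adjustment. The study itself chose candidates by p and fold change, with no adjustment named, and followed them by qRT-PCR. Its selection was therefore not repeated here.

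The intervals also depended on the scaling. With quantile normalization, over the 5 miRNAs and the 4 comparisons of 2 groups, the 95% confidence intervals ran from a fold change of 0.673 to one of 1.40, the lower end from miR-143-5p and the upper from miR-126a-5p, both for UVD against SO at 4 h. They ran from 0.712 to 1.45 with 75th percentile scaling, and with no scaling, the widest of the 5 scalings, from 0.655 to 1.57. For miR-126a-3p they reached from 0.808 to 1.15 fold with quantile normalization, where its values are tied, but from 0.778 to 1.36 with 75th percentile scaling and up to 1.49 with the 75th percentile over all miRNAs and 1.56 with no scaling. The median standard error of the 5 miRNAs was 0.08 on the log2 scale with quantile normalization, against 0.11 over all miRNAs tested.

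**Figure D2:**
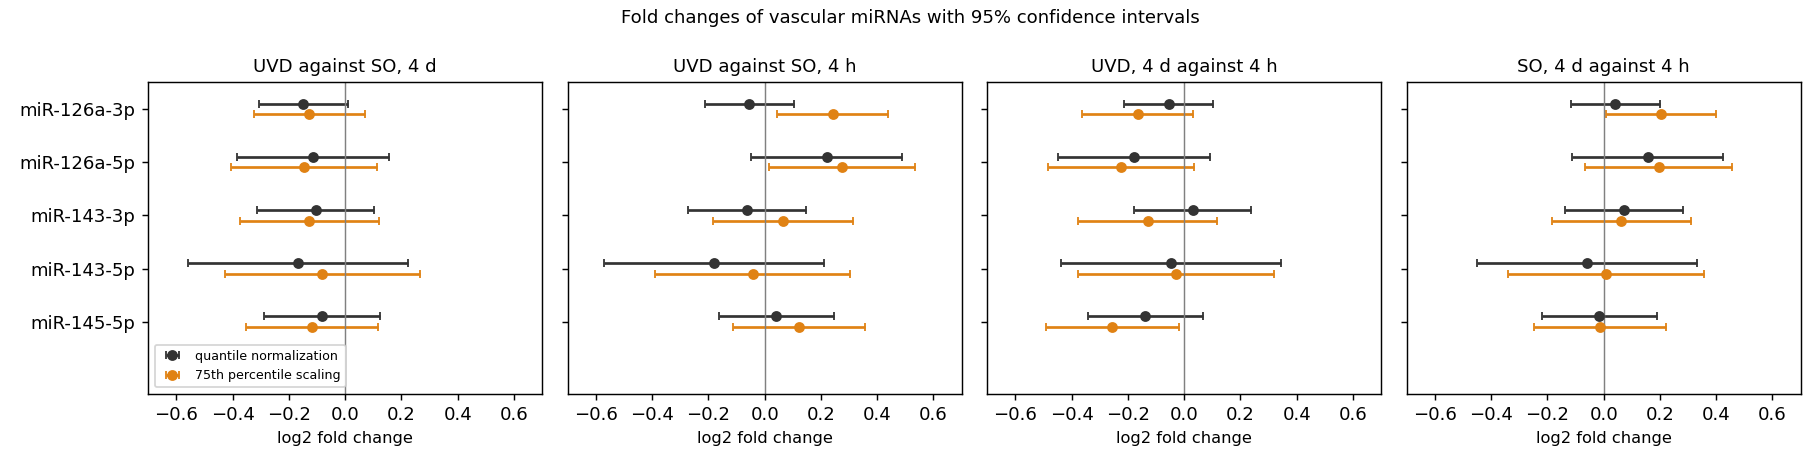
Log2 fold change (horizontal axis) of the 5 miRNAs with its 95% confidence interval in the 4 comparisons of 2 groups, with quantile normalization (dark) and with each array divided by its 75th percentile (orange). With quantile normalization all intervals include 0, and at 4 h miR-126a-3p is at −0.05 with quantile normalization but at 0.24 with 75th percentile scaling.

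The 5 miRNAs differed in their spread over the 8 arrays with quantile normalization, and differed less with 75th percentile scaling. With quantile normalization the SD of the log2 values was 0.07 for miR-126a-3p, and 9.72% of all miRNAs tested had a smaller one. For miR-145-5p it was 0.08 (13.0% had a smaller one), and for miR-143-3p it was 0.08 (13.5%). miR-126a-5p and miR-143-5p were nearer to the median SD of all miRNAs tested, 0.16, with 0.13 for miR-126a-5p (38.2% had a smaller one) and 0.16 for miR-143-5p (48.8%). The SD with 75th percentile scaling was 0.12 for miR-126a-3p (26.3% had a smaller one), miR-145-5p (27.7%) and miR-143-5p (27.0%), 0.14 for miR-126a-5p (41.0%) and 0.09 for miR-143-3p (13.3%).

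**Figure D3:**
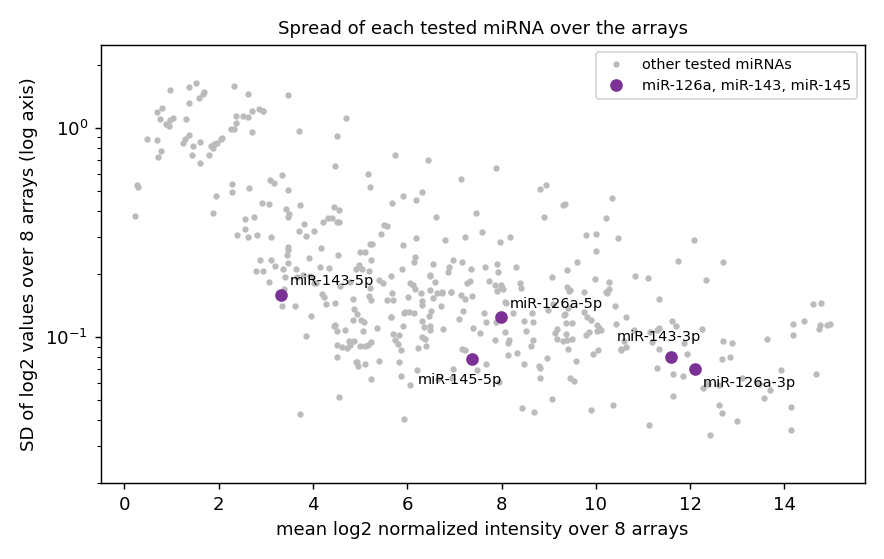
SD of the log2 normalized intensities over the 8 arrays (log axis) against their mean, for the 422 tested miRNAs. Of the 5 vascular miRNAs, miR-126a-3p, miR-143-3p and miR-145-5p, at SDs of 0.07 to 0.08, lie low in the cloud, and miR-126a-5p and miR-143-5p lie nearer to its middle.

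The arms of the miR-126a precursor were compared because they are cut from the same hairpin, so their array-to-array course can be set side by side. Before any scaling, miR-126a-3p had total gene signals of 5470 and 4130 at 4 d after UVD, 4047 and 4348 at 4 h after UVD, 4626 and 4494 at 4 d after SO, and 3705 and 4716 at 4 h after SO. miR-126a-5p had 310 and 225 at 4 d after UVD, 239.9 and 246 at 4 h after UVD, 265 and 248 at 4 d after SO, and 205 and 274 at 4 h after SO. Both arms were highest on replicate 1 of the UVD group at 4 d and lowest on replicate 1 of the SO group at 4 h. Over the 8 arrays their log2 signals had a Pearson r of 0.98, a value to which the brightness of each array contributes. With 75th percentile scaling, which divides each array by its own 75th percentile, the r was 0.97. With that scaling miR-126a-3p also had an r of 0.99 with miR-151-5p and of 0.97 with miR-34a-3p, which are not arms of its precursor. So a high r was not particular to the arms, and variation shared by the arrays can remain in it.

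After quantile normalization the same r was 0.03. miR-126a-3p then took only 3 different values, and its unscaled signals of 5470 and 4130 at 4 d after UVD both became 4180. Over all precursors with both arms tested, the median r after quantile normalization was 0.41. Why the r of the miR-126a arms fell was not tested. The SD over the arrays of the log2 difference between the arms was 0.04 unscaled and 0.14 after quantile normalization. Of 110 precursors with both arms tested, 2 had a smaller SD of this difference than miR-126a when unscaled, and 43 had a smaller one after quantile normalization. With 75th percentile scaling, 2 of the 110 had a higher r between the arms, where the median r was 0.64. The arms of miR-143 had an r of 0.24 with that scaling, and 85 of the 110 were higher.

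**Figure D4:**
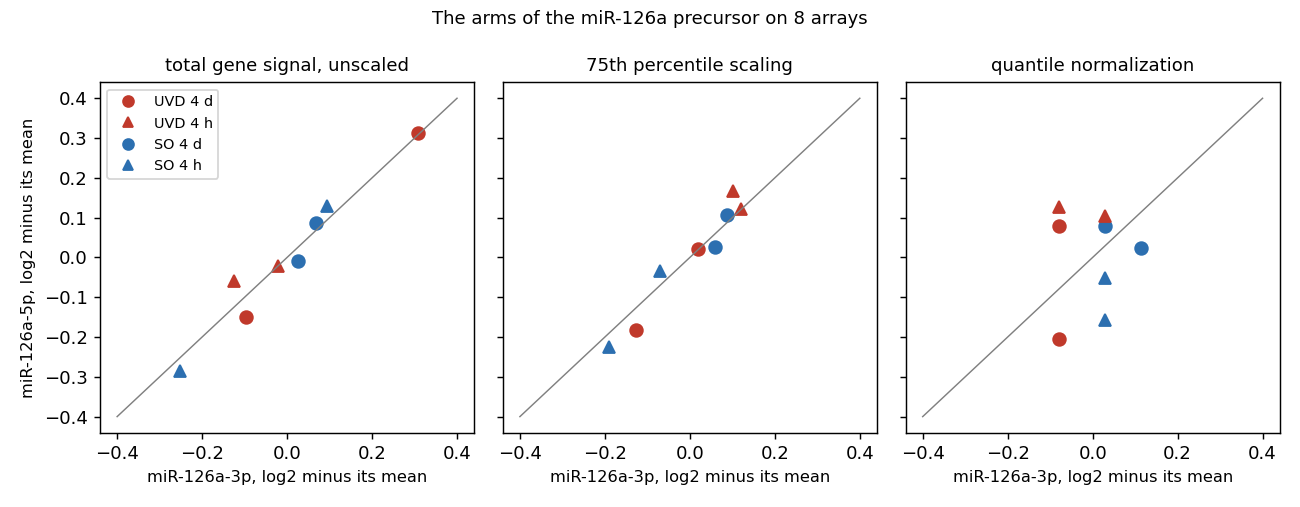
Log2 signal of miR-126a-5p against that of miR-126a-3p, each minus its mean over the 8 arrays, with no scaling (left), with 75th percentile scaling (middle) and with quantile normalization (right), and with a line of equality. The UVD group is in red and the SO group in blue, with circles for 4 d and triangles for 4 h. The points follow the line in the left and middle panels (r of 0.98 and 0.97) and leave it in the right one (r of 0.03).

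The scaling therefore bears on the direction read for miR-126a. With 75th percentile scaling, miR-126a-3p had 4500 and 4064 at 4 d after UVD, 4766 and 4829 at 4 h after UVD, 4717 and 4629 at 4 d after SO, and 3889 and 4230 at 4 h after SO. For UVD against SO at 4 h, the log2 fold change was 0.24 for miR-126a-3p (0.05 to 0.44, limma adjusted p = 0.178). It was 0.27 for miR-126a-5p (0.01 to 0.53, adjusted p = 0.195). Of all 422 miRNAs tested, 298 had a higher mean after UVD at 4 h with this scaling. This scaling also moved the median of all miRNAs tested by 0.12 at 4 h, against −0.01 with quantile normalization. At 4 d miR-126a-3p had −0.13 and miR-126a-5p had −0.15 with 75th percentile scaling. The difference between the time changes of the UVD and SO groups was −0.37 for miR-126a-3p and −0.42 for miR-126a-5p (adjusted p = 0.233 for each), where the median of all miRNAs was −0.11. None of these passed the test, and UVD against SO at 4 d was the only contrast with all 5 means on the same side with both scalings, with medians of −0.13 for the 5 and −0.03 for all miRNAs with 75th percentile scaling. Without any scaling all 5 were higher at 4 d after UVD, where the median of all miRNAs tested was 0.16.

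Differences between miRNAs were also taken within each array. From the endothelial to the smooth muscle miRNAs, the log2 difference of miR-126a-3p and miR-143-3p differed by −0.02 between the UVD and SO groups over both timepoints (exact two-sided permutation test, 4 arrays against 4, adjusted p = 0.914), and by 0.09 with 75th percentile scaling. That of miR-126a-3p and miR-145-5p differed by −0.08 between the UVD and SO groups (exact permutation, adjusted p = 0.724), and by 0.06 with 75th percentile scaling, so neither direction is settled. Within the smooth muscle cluster, miR-145-5p minus miR-143-3p was lower by 0.13 at 4 d than at 4 h (exact permutation p = 0.0857, adjusted p = 0.686). The arms of miR-126a differed by −0.16 between UVD and SO after quantile normalization (exact permutation, adjusted p = 0.686) and by −0.01 with 75th percentile scaling (adjusted p = 0.829). Of 8 such tests 0 passed, and the smallest p that 4 arrays against 4 allow is 0.0286 before adjustment. A lone test at that p could not pass after adjustment over the 8 tests. No conclusion is therefore drawn from the lack of a pass.

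The other miRNAs that are known for roles in vessel growth, such as the miR-23, miR-24 and miR-27 clusters, miR-92a, miR-130a and the pair miR-221 and miR-222, were also detected on all arrays (9 of 9). None of the 9 was called in any of the 6 contrasts. Their median log2 fold change for UVD against SO was 0.02 at 4 d and −0.06 at 4 h (0.13 at 4 h with 75th percentile scaling), and at 4 d against 4 h it was 0.08 after UVD and 0.00 after SO. Their summed normalized intensity was 32463 to 32899 at 4 d after UVD, 32977 to 33312 at 4 h after UVD, 32655 to 33257 at 4 d after SO and 32454 to 33972 at 4 h after SO. These miRNAs are made by many cell types of the brain and are not particular to vessels. At 4 d against 4 h after UVD, 6 of the 9 had a higher mean and 3 a lower one. Among them miR-221-3p, which the study took further, had 133 and 164 at 4 d and 87.4 and 101 at 4 h. After SO it had 109 and 93.3 at 4 d and 107 and 115 at 4 h.

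Markers of tissues that could enter the dissection with the vessels were set beside these values. Of the 4 miRNAs of connective tissue cells, miR-199a and miR-214 with both arms, 3 were detected and all 3 had lower means after UVD, with medians of −0.07 at 4 d and −0.36 at 4 h and 0 called. Their summed intensity was 144.6 to 154 at 4 d after UVD, 141 to 154 at 4 h after UVD, 146 to 165 at 4 d after SO and 161 to 175 at 4 h after SO. Of all miRNAs tested, 56.4% had a lower mean after UVD at 4 d and 50.9% at 4 h.

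The miRNAs of red blood cells, miR-144, miR-451 and miR-486, which tell of blood left in the vessels, had higher means at 4 d than at 4 h for 4 of 4 in both groups, with medians of 0.37 after UVD and 0.26 after SO and 0 called. Their summed intensity was 874 to 1287 at 4 d after UVD, 739 to 944 at 4 h after UVD, 1018 to 1061 at 4 d after SO and 934 to 955 at 4 h after SO. Over the same contrasts the 5 vascular miRNAs had medians of −0.05 after UVD and 0.04 after SO, and all miRNAs tested had −0.01 and 0.00. Of all 422 miRNAs tested, 197 had a higher mean at 4 d after UVD and 212 after SO. Of the red blood cell miRNAs, miR-144-5p was detected on 7 arrays and listed at 0.1 on replicate 2 of UVD at 4 h.

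The miRNAs of white blood cells and microglia had higher means at 4 d than at 4 h for 6 of 6 after UVD (median 0.45, and 5 of 6 with 75th percentile scaling) and 5 of 6 after SO (median 0.34), with 0 called. Their summed intensity was 3900 to 4207 at 4 d after UVD, 3492 to 3542 at 4 h after UVD, 3711 to 3874 at 4 d after SO and 3192 to 3214 at 4 h after SO. In the same contrasts 197 of all 422 miRNAs tested had a higher mean at 4 d after UVD and 212 after SO. What part blood, leukocytes or connective tissue of the dissected block had in the vascular values was not tested.

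For each of the 5 miRNAs, the tested miRNAs whose log2 normalized intensities were most like it over the 8 arrays were sought. For miR-126a-3p they were miR-674-3p, miR-138-2-3p and miR-1306-5p, with r of 0.89, 0.88 and 0.87. For miR-126a-5p they were miR-133a-5p, miR-34a-3p and miR-140-5p (0.91, 0.87 and 0.86). For miR-145-5p they were miR-212-3p, miR-290 and miR-211-3p (0.91, 0.90 and 0.87), and the first 2 of these were also its nearest with 75th percentile scaling (0.98 and 0.95).

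For miR-143-3p the nearest were miR-542-3p, miR-199a-3p and miR-488-3p, at lower values (0.62, 0.62 and 0.57), and for miR-143-5p they were miR-381-5p, miR-92b-3p and miR-208a-5p (0.86, 0.85 and 0.85). None of these lists, made after quantile normalization, held another vascular miRNA. With 75th percentile scaling the nearest to miR-126a-5p was its other arm (0.97), and that arm's nearest were miR-151-5p (0.99) and miR-126a-5p. Each r is the highest among those with all other tested miRNAs over only 8 arrays that share a slide. Apart from miR-212-3p, miR-290 and miR-34a-3p, none was among the first 10 with 75th percentile scaling.

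miR-143-3p and miR-145-5p, which share a primary transcript, had an r of 0.78 unscaled, 0.48 with 75th percentile scaling and −0.01 after quantile normalization. For miR-126a-3p and miR-143-3p the values were 0.81, 0.55 and 0.25. With 75th percentile scaling the r of each of these pairs was below the 0.97 of the arms of miR-126a.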

How the data were processed

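The authors deposited, for each of 8 arrays, the intensity of every spot and the total gene signal of every miRNA as given by Agilent Feature Extraction 10.7.3.1, and a table of normalized intensity values that they had quantile normalized. Control spots were left out. The total gene signals were quantile normalized, the kind of normalization named in the study's methods. Values under 1 were set to 1, and log2 was taken. The authors' values were not reproduced by this: for miR-143-5p theirs ran from 47.1 to 51.4, against 8.39 to 11.6 here. Tests were made in R 4.3.3 with limma 3.58.1 on the 422 of 758 miRNAs that some group had on both of its arrays above background (4 group means, eBayes, Benjamini-Hochberg adjustment, threshold 0.05), and the model was tested on simulated data. Quantile normalization forces the same values on each array, so bright miRNAs move in steps. Differences within arrays were tested by exact permutation in Python 3.11.15. With 2 arrays per group, the number of arrays limits the precision.

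Named were all miRNAs fitting the 3 names with any arm, miR-126b, miRNAs of shared seed and the 3 nearest by r. The miRNAs and lists, including those of striated muscle and choroid plexus, were chosen with earlier results of these data known. For UVD against SO the median log2 fold change was −0.13 at 4 d and 0.49 at 4 h for striated muscle, and 0.54 and 0.05 for choroid plexus. For 4 d against 4 h it was −0.06 after UVD and 0.36 after SO for striated muscle, and 0.61 and 0.09 for choroid plexus, with 0 called in each. Alternatives were other scalings, signals, floors, filters, variance models, the methods' t-test, a replicate block and leaving out each array.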

Additional observations from a re-analysis of the deposited data

How the results depend on the processing

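No vascular miRNA was called under any of the 25 alternatives, whose lowest adjusted p was 0.111. Of 722 values of log2 fold change recomputed, 649 kept their sign, 6 were at 0 and 67 changed sign, and all were uncalled in both settings. The counts below are of all miRNAs called. For UVD against SO at 4 h the count of 2 became 0 with the mean spot signal and the methods' t-test, 1 with 75th percentile scaling, the 75th percentile over all miRNAs and no scaling, 6 with a variance trend and 7 with normexp and array weights, and 1 (in 3 of the 8 cases) to 10 (without UVD 4 h replicate 1) on leaving out each array in turn. For UVD against SO at 4 d the count of 0 became 1 with 75th percentile scaling, the 75th percentile over all miRNAs, no scaling, cyclic loess and a floor of 0.1 and 2 with a floor of 5 and no detection filter, and 0 (in 7 of the 8 cases) to 1 (without UVD 4 d replicate 1) on leaving out each array in turn. For UVD at 4 d against 4 h the count of 0 became 1 with 75th percentile scaling, the 75th percentile over all miRNAs, no scaling, cyclic loess and a floor of 0.1 and 2 with no detection filter, and 0 (in 5 of the 8 cases) to 11 (without UVD 4 h replicate 1) on leaving out each array in turn. For SO at 4 d against 4 h the count of 7 became 0 with the methods' t-test, 1 with 75th percentile scaling, the 75th percentile over all miRNAs and no scaling, 2 with no detection filter and the replicate block, 3 with cyclic loess and a floor of 0.1, 19 with the authors' values and 25 with normexp, and 1 (without UVD 4 d replicate 1 and UVD 4 d replicate 2) to 12 (without SO 4 d replicate 1) on leaving out each array in turn. For the averaged contrast the count of 0 became 2 with 75th percentile scaling, the 75th percentile over all miRNAs, no scaling, cyclic loess, a floor of 0.1 and no detection filter, and 0 (without UVD 4 d replicate 2 and SO 4 d replicate 1) to 7 (without UVD 4 h replicate 1) on leaving out each array in turn. For the difference between time changes the count of 1 became 0 with the authors' values, normexp, the mean spot signal and a variance trend, 2 with 75th percentile scaling, the 75th percentile over all miRNAs, no scaling and a floor of 5 and 3 with cyclic loess, a floor of 0.1 and no detection filter, and 0 (without UVD 4 h replicate 2 and SO 4 d replicate 2) to 7 (without UVD 4 h replicate 1) on leaving out each array in turn.

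These are the settings in which an uncalled fold change of a vascular miRNA changed sign. For UVD against SO at 4 h, miR-126a-3p had 0.24 with 75th percentile scaling, 0.27 with the 75th percentile over all miRNAs, 0.0052 with no scaling, 0.082 with cyclic loess and 0.061 with normexp, miR-143-3p had 0.065 with 75th percentile scaling and 0.092 with the 75th percentile over all miRNAs, miR-143-5p had −0.35 to 0.015 on leaving out arrays (sign changed without UVD 4 h replicate 1), and miR-145-5p had −0.11 with no scaling, −0.0089 with cyclic loess and −0.036 to 0.12 on leaving out arrays (sign changed without UVD 4 h replicate 1 and SO 4 h replicate 2). For UVD against SO at 4 d, miR-126a-3p had 0.060 with no scaling, miR-126a-5p had 0.042 with no scaling and −0.26 to 0.030 on leaving out arrays (sign changed without UVD 4 d replicate 2), miR-143-3p had 0.060 with no scaling, miR-143-5p had 0.11 with no scaling, and miR-145-5p had 0.069 with no scaling. For UVD at 4 d against 4 h, miR-126a-3p had 0.18 with no scaling, miR-126a-5p had 0.12 with no scaling, miR-143-3p had −0.13 with 75th percentile scaling, −0.038 with the 75th percentile over all miRNAs, −0.075 with cyclic loess, −0.023 with the authors' values and −0.12 with normexp, miR-143-5p had 0.063 with the 75th percentile over all miRNAs, 0.32 with no scaling, 0.0014 with the mean spot signal and −0.24 to 0.14 on leaving out arrays (sign changed without UVD 4 d replicate 1 and UVD 4 h replicate 2), and miR-145-5p had 0.091 with no scaling. For SO at 4 d against 4 h, miR-143-3p had −0.016 with no scaling, −0.078 with cyclic loess, −0.046 with normexp and −0.037 to 0.18 on leaving out arrays (sign changed without SO 4 d replicate 1), miR-143-5p had 0.0083 with 75th percentile scaling, 0.12 with the 75th percentile over all miRNAs, 0.017 with normexp and −0.15 to 0.027 on leaving out arrays (sign changed without SO 4 h replicate 1), and miR-145-5p had 0.096 with the 75th percentile over all miRNAs, 0.0033 with the authors' values, 0.0090 with the mean spot signal and −0.083 to 0.060 on leaving out arrays (sign changed without SO 4 d replicate 1 and SO 4 h replicate 1). For the averaged contrast, miR-126a-3p had 0.057 with 75th percentile scaling, 0.076 with the 75th percentile over all miRNAs and 0.033 with no scaling, miR-126a-5p had −0.0039 with the authors' values and −0.019 to 0.13 on leaving out arrays (sign changed without UVD 4 d replicate 1), and miR-145-5p had 0.0018 with 75th percentile scaling, 0.020 with the 75th percentile over all miRNAs and −0.061 to 0.021 on leaving out arrays (sign changed without UVD 4 h replicate 2 and SO 4 h replicate 1). For the difference between time changes, miR-126a-3p had 0.055 with no scaling, miR-126a-5p had 0.0049 with no scaling, miR-143-3p had 0.23 with no scaling, 0.0032 with cyclic loess and −0.15 to 0.061 on leaving out arrays (sign changed without SO 4 d replicate 1), miR-143-5p had −0.038 with 75th percentile scaling, −0.054 with the 75th percentile over all miRNAs, −0.050 with normexp, −0.10 with its brighter probe only and −0.19 to 0.20 on leaving out arrays (sign changed without UVD 4 d replicate 2, UVD 4 h replicate 1, SO 4 d replicate 2 and SO 4 h replicate 1), and miR-145-5p had 0.18 with no scaling. Within arrays, miR-126a-3p minus miR-126a-5p (4 d minus 4 h) was −0.063 to 0.068 on leaving out arrays (sign changed without UVD 4 d replicate 2, UVD 4 h replicate 1, UVD 4 h replicate 2 and SO 4 d replicate 2), miR-126a-3p minus miR-143-3p (UVD minus SO) was 0.088 with 75th percentile scaling, 0.089 with no scaling and −0.071 to 0.027 on leaving out arrays (sign changed without SO 4 d replicate 2), miR-126a-3p minus miR-143-3p (4 d minus 4 h) was 0.053 with 75th percentile scaling and 0.053 with no scaling and miR-126a-3p minus miR-145-5p (UVD minus SO) was 0.055 with 75th percentile scaling and 0.055 with no scaling. The causes were not tested.

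Replicate numbers did not pair the arrays: deviations of same-numbered arrays had correlations of −0.25 to 0.19 over the 6 pairs of groups. With the replicate number as a block, SO at 4 d against 4 h had 2 calls against 7, and no other count moved by over 1.5 times. Where an array is left out, the lone array of its group is assumed to vary like the other groups. Restricting to 1 probe was chosen after seeing the data, and all alternatives rest on at most 2 arrays per group.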
